A study of Mus musculus with 9 samples.

Results

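Livers of AAV-V mice fed a high-fat diet (HFD) were set against livers of AAV-V mice fed a regular diet, to see how the diet was reflected in hepatic gene expression in the obese model of fatty liver. The 6 arrays of these groups, 3 per diet, were chosen by their labels from the 9 arrays of the series. AAV-V is an adeno-associated virus with an empty vector, described in the study as hepatocyte-specific, and both groups carried it, so that they differed by diet. All samples were liver RNA of male mice with a labelled age of 12 months, and the regular diet is called normal diet in the labels. The methods name C57BL/6N mice and the results C57BL/6 mice for the AAV injections. The labelled age differs from the times after injection that the study gives for these livers, the stated duration of the HFD differs between its results and methods, and no source used here says if RNA of several mice was pooled in a sample. The arrays were Agilent one-colour arrays with 60-base probes, on which Cy3-labelled liver RNA was hybridized.

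The liver makes fatty acids from acetyl-CoA, desaturates and esterifies them, and burns fatty acids in mitochondria and peroxisomes. Part of the acetyl-CoA from oxidation leaves the liver as ketone bodies. Enzymes of lipid synthesis are known targets of SREBP-1c and ChREBP, which respond to insulin and carbohydrate, and many enzymes of oxidation and ketogenesis are known targets of PPARα, a receptor for fatty acids. These pathways are textbook responders to dietary fat in the liver.

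The share of non-control spots called well above background was 10.2% to 10.7% on AAV-V arrays and 13.8% to 16.7% on HFD arrays, and the processed signal of the 2756 probes well above background on all 6 arrays had a median of 31.6 to 37.4 for AAV-V and of 73.7 to 117 for HFD. The mean log2 signal of 249 spike-in spots, which detect RNA added to the sample, lay between 10.38 and 10.92 on the AAV-V arrays and between 10.49 and 10.87 on the HFD arrays. The HFD arrays lay on another slide than the AAV-V arrays, and diet cannot be told apart from slide. The 3 AAV-GP73 arrays of the series shared the slide of AAV-V, and their share was 16.02% to 18.38%. After scaling by detected probes, the median change of the 4791 genes tested was 0.42 on the log2 scale, and every change below is given relative to it. "Higher", "lower", "rose" and "fell" mean a relative fold change of at least 2 with an adjusted p under 0.05 by limma. Values per array are log2 processed signals after scaling, with 0.42 subtracted on the HFD arrays, so that their difference between diets is the relative change, and they are called centred log2 signals. In bulk tissue, fewer cells of a type and less RNA per cell cannot be told apart. With 3 arrays per diet no exact permutation test can give a p below 0.1, and p values measure the spread between these samples.

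Of the 4791 genes tested, 709 (14.8%) were higher and 1389 (29.0%) lower in HFD. Among the 2514 genes detected, that is well above background, on all 6 arrays, whose change is a measured size, 114 (4.53%) were higher and 1129 (44.9%) lower, and their median change was -0.83. Another 1302 genes were well above background on all HFD arrays and on no AAV-V array, 10 genes the other way round, and 965 genes on all arrays of 1 diet and some of the other. The changes of these 965 genes are fitted values, and the number of arrays that detected the gene is given. For genes well above background in 1 diet only, a least fold change is given, relative to the same median, with each dim array set at the lowest signal well above background on it or at the probe's own signal where that was higher. This balance depended on the reference. Relative to the median of the 2514 genes, 683 (27.2%) of them rose and 455 (18.1%) fell, and 2118 (44.2%) and 596 (12.4%) of all genes tested. Scaled by the spike-in spots with no median subtracted, 1191 (47.4%) and 36 (1.43%) of the 2514 genes were higher and lower, and 3090 (64.5%) and 73 (1.52%) of all genes tested. All 709 rises were also called under the other 2 references, and 73 falls were called under all 3. Both other references move the changes upward as a whole, so this overlap is largely built in and is no test of the rises. The calls depended on the background correction too. With normexp, which raises dim signals, 361 genes were higher and 21 lower, and 92 of the 709 rises and 21 of the 1389 falls were called under both. Of the 92 called genes named here, normexp also called 25 rises and 6 falls. The change also varied with brightness. With the 2514 genes split by mean signal into 5 bins of 502 or 503, the median change was -1.59 in the dimmest, -0.15 in the middle and -0.94 in the brightest bin, with 365, 156 and 236 falls. For a fall, the value by spike-in scaling is therefore given beside the relative change where it matters. Counts for the gene lists below are to be read beside the shares over all genes tested. These were 14.8% rises and 29.0% falls, or 64.5% and 1.52% by spike-in scaling. List members detected on HFD arrays only belong to a class in which 496 of 1302 genes rose and 7 fell. Medians of lists use fitted changes, also for genes detected in 1 diet only. Where a median with least changes is given too, genes with no least fold change above 1 keep their fitted change. Such a median is therefore not itself a least value. In relative terms several genes of lipid synthesis lay among the largest falls and several genes of fatty acid oxidation and ketogenesis among the largest rises.

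**Figure D1:**
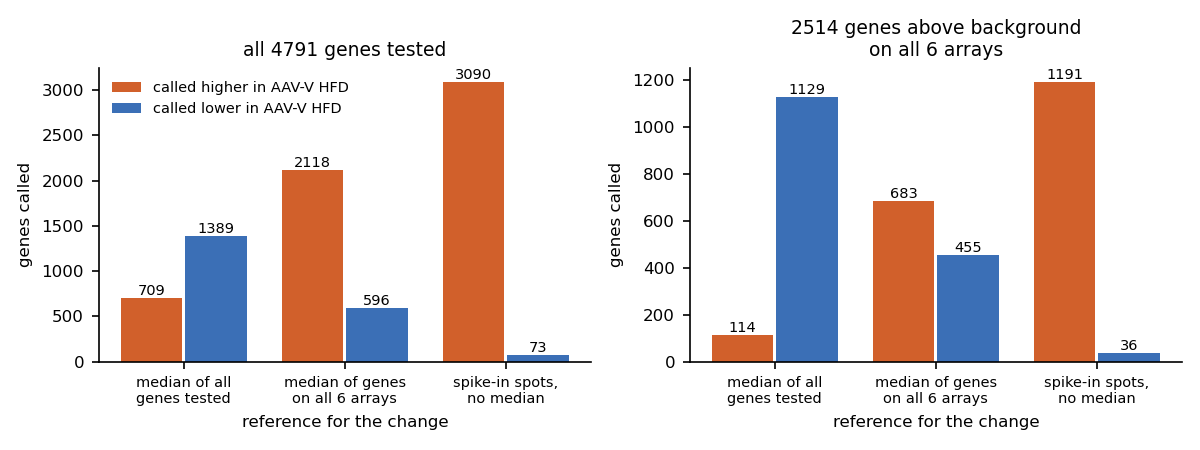
Bars show the number of genes called higher or lower in AAV-V HFD than in AAV-V (y axis) under 3 references for the change (x axis), for all 4791 genes tested on the left and for the 2514 genes detected on all 6 arrays on the right. Higher calls went from 709 to 3090 of all genes and lower calls from 1389 to 73 between the first and the last reference.

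**Figure D2:**
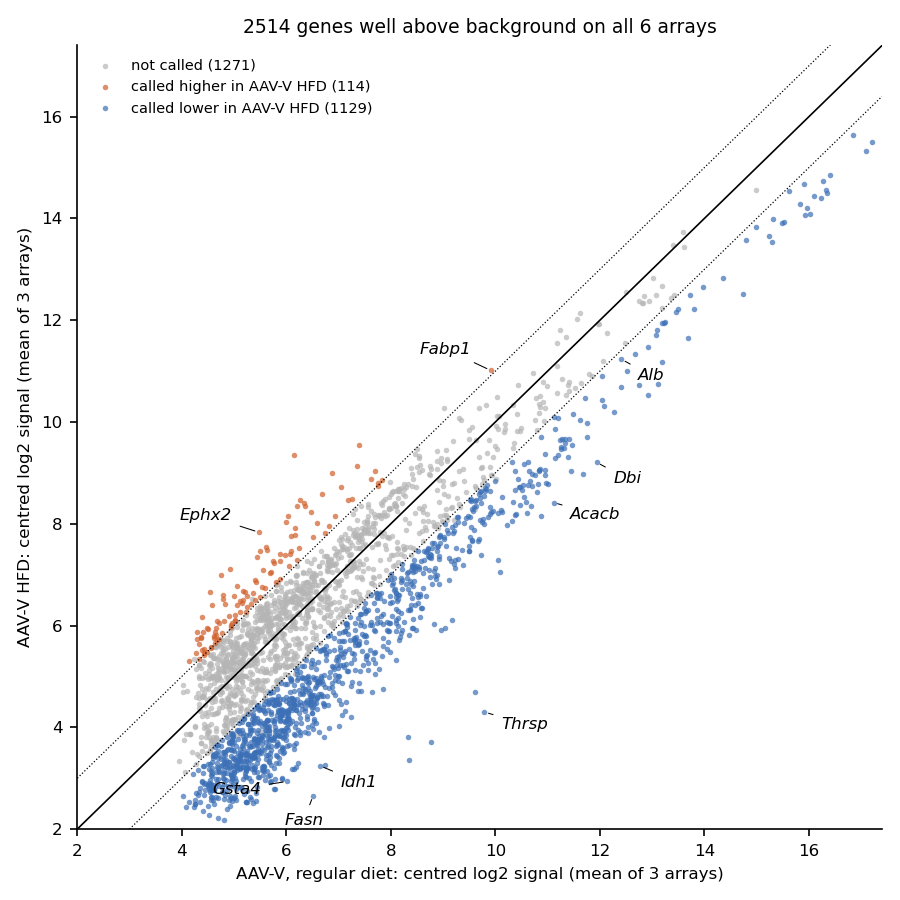
Each of the 2514 genes detected on all 6 arrays is a point, placed by its mean centred log2 signal over the 3 AAV-V arrays (x axis) and the 3 AAV-V HFD arrays (y axis). The solid line marks no relative change and the dotted lines a change of 2-fold, and Thrsp lay farthest below and Ephx2 farthest above among the genes named.

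De novo lipogenesis had the lowest median of the 20 lists plotted. Of 19 genes listed for it, 12 were tested, 8 fell, 0 rose and the median was -2.07, where 29.0% of all genes tested fell and their median was 0 by construction. By spike-in scaling 4 of the 12 rose and 5 fell, and with normexp Thrsp and Acacb were the falls of the 8 that were also called. Thrsp encodes Spot 14, a protein tied to the control of fatty acid synthesis, and its probe lies on chromosome 7 of mm9, 104565562 to 104565621. Its centred log2 signal was 9.68, 9.50 and 10.20 on the AAV-V arrays and 4.97, 3.98 and 3.96 on the HFD arrays. The groups lay far apart, with a relative change of -5.49 ± 0.35 (SE), 45.0-fold lower (limma, adjusted p = 8.96e-06), and the change by spike-in scaling was -3.74. The processed signal itself went from 406, 337 and 643 to 70.7, 31.5 and 21.1, although the HFD arrays were brighter as a whole. A second probe of Thrsp changed by -2.41 and was also called lower.

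Fatty acid synthase, Fasn, the enzyme that builds palmitate, had 6.70, 6.47 and 6.38 on the AAV-V arrays and 2.07, 3.08 and 2.83 on the HFD arrays, a change of -3.86 ± 0.34 (SE; limma, adjusted p = 5.12e-05) and of -2.11 by spike-in scaling. Scd1, the main Δ9 desaturase of liver, had 6.27, 5.78 and 5.72 against 1.64, 2.33 and 3.10, and, detected on 2 of 3 HFD arrays, had a fitted change of -3.56 ± 0.38 (SE; limma, adjusted p = 9.41e-05) and of -1.81 by spike-in scaling. No array of one diet reached the range of the other for either gene. Scd3, another desaturase of the family, was detected on all AAV-V arrays, with 6.05, 4.55 and 5.62, and on no HFD array, so that it fell at least 10.8-fold (limma, adjusted p = 5.12e-05).

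Idh1, the cytosolic isocitrate dehydrogenase that can supply NADPH, had 5.82, 6.68 and 7.41 against 3.69, 2.52 and 3.52, a change of -3.40 ± 0.42 (SE; limma, adjusted p = 0.00012). It was also called lower by spike-in scaling, at -1.64. Acacb, the acetyl-CoA carboxylase isoform whose malonyl-CoA restrains CPT1, had 10.78, 11.14 and 11.43 against 8.52, 8.06 and 8.67, a change of -2.70 ± 0.32 (SE; limma, adjusted p = 0.000108), and its change by spike-in scaling, -0.95, was not called. These groups did not overlap, as was so, in the direction of a fall, for 51.0% of the genes measured on all 6 arrays. ATP citrate lyase, Acly, which makes cytosolic acetyl-CoA, had 5.67, 4.40 and 5.81 against 3.37, 3.58 and 4.57, so that the groups overlapped, and its change was -1.45 ± 0.42 (SE; limma, adjusted p = 0.0115). Its call was lost without AAV-V array 3, at -1.10, or HFD array 2, at -1.27. Another probe of Acly, well above background in the regular diet only, was called lower with a fitted change of -5.99. Slc25a1, the mitochondrial citrate carrier, changed by -1.01 (limma, adjusted p = 0.0198), a call that was lost without AAV-V array 2, at -0.76, or either of HFD arrays 1 and 2, at -0.92 and -0.94. By spike-in scaling neither Acly, at 0.30, nor Slc25a1, at 0.74, was lower.

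Srebf1 and Mlxipl, 2 regulators of the pathway, did not pass the test. Srebf1, which encodes SREBP-1c, changed by -0.02 (limma, adjusted p = 0.974) and Mlxipl, which encodes ChREBP, by -0.17 (limma, adjusted p = 0.694). Both were well above background on the HFD arrays and on none of the AAV-V arrays, so that these are fitted values near background. Elovl6, a fatty acid elongase, changed by -0.32 (limma, adjusted p = 0.488). Acaca, the other acetyl-CoA carboxylase, was well above background on 2 AAV-V arrays and on 0 HFD arrays and was not tested.

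**Figure D3:**
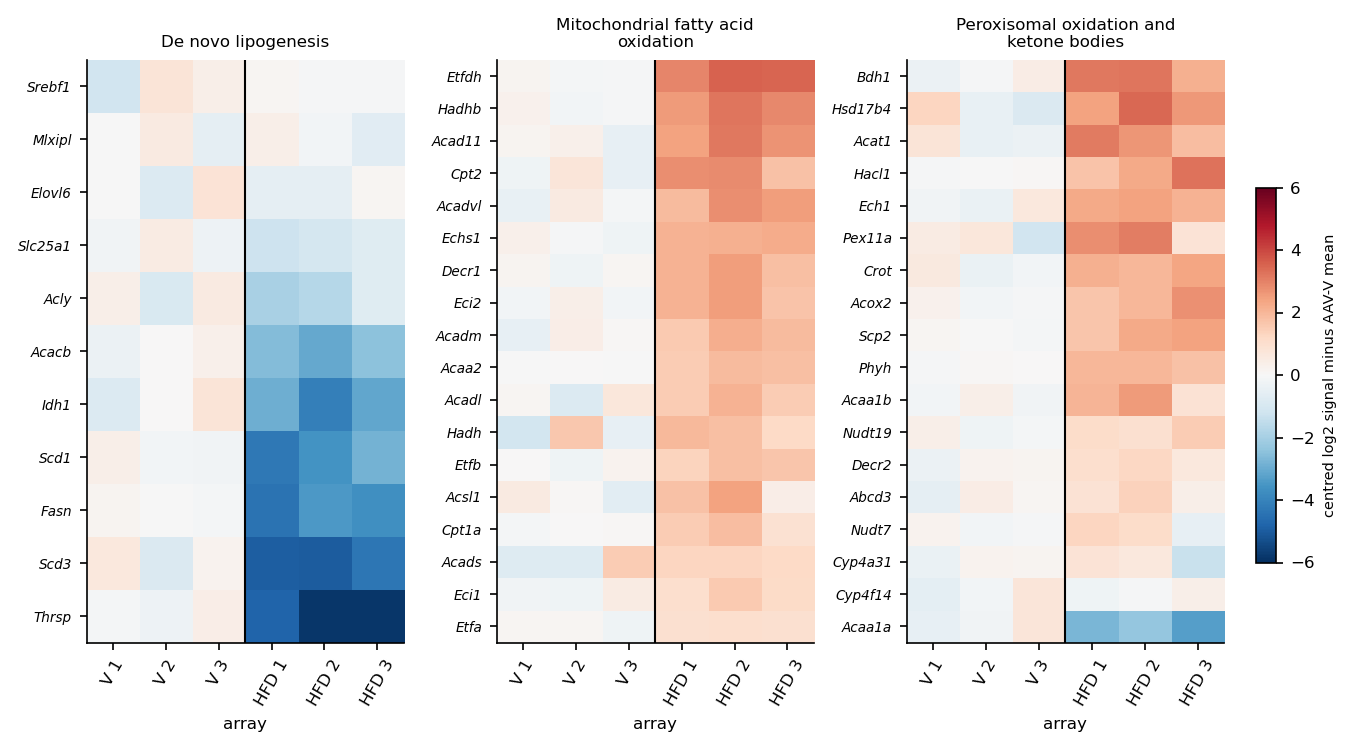
Colour gives the centred log2 signal minus the mean of the 3 AAV-V arrays for each array (x axis) and for tested genes (y axis) of 3 sets of lipid genes. Lipogenesis genes from Slc25a1 down to Thrsp are blue on the 3 HFD arrays, most of the oxidation and ketone genes are red, and Acaa1a, at -2.78, is the blue exception.

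For the genes of both pathways, promoters of 300 bases (250 before to 50 after the start) were read from RefSeq on GRCm38.p6, to show sequence around the starts of genes that moved together. Of the 8 lipogenesis genes called lower, 7 had a promoter there, with 8 promoters in all. CCAAT, searched on both strands, was in 6 of these 8 promoters and in 37.4% of all 32851 promoters. The E box CACGTG was in 1 of the 8 and in 7.15% of all, AGGTCA in 2 and in 16.3%, and TCACNCCAC in 0 and in 1.24%. For the 31 genes of mitochondrial and peroxisomal oxidation and ketone metabolism called higher, 24 had a promoter, and of their 27 promoters 11 held CCAAT, 6 AGGTCA, 1 TCACNCCAC and 0 CACGTG. The direct repeat of 2 AGGTCA letters runs with 1 base between them, which contains AGGTCA, was in 0 of both sets and in 0.0396% of all promoters. These are counts of letters in a window and not of bound sites. The promoters of Thrsp and Fasn, the largest falls with a gene symbol among genes measured on all 6 arrays, and of Etfdh and Acaa1b, from the oxidation genes described below, are printed with CCAAT or its reverse complement ATTGG in capitals and run 5′ to 3′ on the minus strand. They lie at chr7:97417501-97417800 (Thrsp), chr11:120824498-120824797 (Fasn), chr3:79628718-79629017 (Etfdh) and chr9:119157044-119157343 (Acaa1b).
Thrsp: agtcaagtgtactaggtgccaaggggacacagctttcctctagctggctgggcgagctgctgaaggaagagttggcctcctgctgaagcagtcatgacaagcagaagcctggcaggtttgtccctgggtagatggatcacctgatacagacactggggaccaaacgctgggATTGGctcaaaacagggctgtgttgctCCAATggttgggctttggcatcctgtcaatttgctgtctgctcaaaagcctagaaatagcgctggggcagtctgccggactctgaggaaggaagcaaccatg
Fasn: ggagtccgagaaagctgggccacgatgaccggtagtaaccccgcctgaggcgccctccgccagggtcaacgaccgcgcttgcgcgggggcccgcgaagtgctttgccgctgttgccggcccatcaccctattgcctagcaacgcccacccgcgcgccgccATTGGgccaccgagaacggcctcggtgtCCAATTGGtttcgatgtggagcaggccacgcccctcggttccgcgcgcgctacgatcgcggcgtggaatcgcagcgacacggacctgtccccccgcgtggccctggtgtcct
Etfdh: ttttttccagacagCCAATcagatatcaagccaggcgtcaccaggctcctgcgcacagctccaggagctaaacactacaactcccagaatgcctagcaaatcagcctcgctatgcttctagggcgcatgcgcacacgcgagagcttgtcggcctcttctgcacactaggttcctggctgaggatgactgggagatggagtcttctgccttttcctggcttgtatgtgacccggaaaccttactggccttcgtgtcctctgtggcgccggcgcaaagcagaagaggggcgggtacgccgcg
Acaa1b: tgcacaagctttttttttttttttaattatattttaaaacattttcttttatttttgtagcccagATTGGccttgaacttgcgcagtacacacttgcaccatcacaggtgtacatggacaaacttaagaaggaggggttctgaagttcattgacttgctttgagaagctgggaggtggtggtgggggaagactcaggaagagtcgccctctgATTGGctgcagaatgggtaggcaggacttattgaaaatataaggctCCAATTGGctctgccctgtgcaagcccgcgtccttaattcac
The motif occurred 2 times for Thrsp, 3 times for Fasn, 1 time for Etfdh and 4 times for Acaa1b, and in Fasn and Acaa1b a pair of matches overlaps on the 2 strands.

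Cholesterol synthesis was measured in part. Of 25 genes, 7 were tested, 3 fell and 0 rose, and by spike-in scaling 2 fell and 3 rose. Of all genes tested 29.0% fell and 14.8% rose, and by spike-in scaling 1.52% and 64.5%. Fdft1, squalene synthase, was well above background in the regular diet only and fell at least 6.58-fold (limma, adjusted p = 0.000192), with 4.28, 4.74 and 5.07 on the AAV-V arrays. Fdps, farnesyl diphosphate synthase, had 5.82, 4.46 and 5.36 against 1.09, 1.50 and 3.60, and was detected on 1 of 3 HFD arrays, with a fitted change of -3.15 ± 0.55 (SE; limma, adjusted p = 0.00057). Both were also called lower by spike-in scaling, where the fitted change of Fdft1 was -1.54, smaller than its least fold change relative to the median. Sc5d, a late desaturase of the pathway, changed by -1.54 (limma, adjusted p = 0.000933) and by 0.21 by spike-in scaling. Hmgcs1, an early enzyme, changed by 0.04 (limma, adjusted p = 0.947).

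Mitochondrial fatty acid oxidation was measured for most members. Of 22 genes, 18 were tested, 16 rose and 0 fell, with a median of 1.82, where 14.8% of all genes tested rose. Only 4 of the 18 were detected on all 6 arrays, and 3 of them rose, where 4.53% of all such genes did. Another 8 were tested because every HFD array detected them, while no AAV-V array did. In that class 496 of 1302 genes rose. With least changes used for that class where above 1-fold, the list median was 1.49. By spike-in scaling all 18 rose, and with normexp 6 of the 16 rises were also called. Decr1, which reduces dienoyl-CoA from unsaturated fatty acids, had 4.70, 4.27 and 4.64 on the AAV-V arrays and 6.60, 7.07 and 6.32 on the HFD arrays, a 4.37-fold rise (limma, adjusted p = 0.000267). Acadm, medium-chain acyl-CoA dehydrogenase, had 3.43, 4.36 and 4.03 against 5.52, 6.10 and 5.85, and rose by a fitted 1.88 ± 0.35 (SE; limma, adjusted p = 0.000811), detected on 2 of 3 AAV-V arrays. Acaa2, the thiolase of the matrix, had 6.46, 6.51 and 6.46 against 8.02, 8.39 and 8.31, and rose by 1.76 ± 0.27 (SE; limma, adjusted p = 0.000287). In each of these genes every HFD array lay above every AAV-V array, as was so for 22.3% of all genes tested and for 11.2% of those measured on all 6 arrays.

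Several genes of the pathway were well above background on the HFD arrays only, so that a least fold change applies. Cpt2, the inner carnitine palmitoyltransferase, had 3.06, 4.02 and 2.84 against 6.11, 6.14 and 5.08, and was at least 3.64-fold higher (limma, adjusted p = 0.000365). Etfdh, which passes electrons from acyl-CoA dehydrogenases to the respiratory chain, had 2.14, 1.86 and 1.89 against 4.88, 5.48 and 5.46, and was at least 2.67-fold higher (limma, adjusted p = 5.12e-05). Acad11, an acyl-CoA dehydrogenase, was at least 2.58-fold and Hadhb, a subunit of the trifunctional protein, at least 1.76-fold higher. Cpt1a, the outer carnitine palmitoyltransferase that admits long-chain fatty acids, had 1.43, 1.55 and 1.61 against 3.07, 3.38 and 2.45 and was called higher (limma, adjusted p = 0.00181), with a fitted change of 1.44 and no least fold change above 1. The 2 tested genes that were not called were Etfa, at 0.99 and just under the 2-fold limit, and Acads, at 1.26 (limma, adjusted p = 0.0521). Etfa was called without AAV-V array 2 or HFD array 2, at 1.06 and 1.03, and Acads without AAV-V array 3, at 2.10.

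Of 25 genes of peroxisomal and omega-oxidation 17 were tested, 11 rose and 1 fell, with a median of 1.91, and with normexp 4 of these rises were also called. Of the 17, 7 were detected on all 6 arrays, of which 4 rose and 1 fell, and 7 on HFD arrays only. With least changes used for the latter where above 1-fold, the median was 0.98. Scp2, which encodes a sterol carrier and a peroxisomal thiolase, had 6.16, 6.01 and 5.93 against 7.71, 8.31 and 8.44, a 4.35-fold rise (limma, adjusted p = 0.000161). The diets did not overlap. Hsd17b4, the D-bifunctional protein, was well above background in HFD only and at least 3.00-fold higher (limma, adjusted p = 0.000545), and Pex11a, which is involved in peroxisome division, was at least 3.16-fold higher (limma, adjusted p = 0.00986). On HFD array 3 Pex11a had 4.23, against 6.18 and 6.46 on the other HFD arrays, near the 3.87 and 4.07 of 2 AAV-V arrays.

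The peroxisomal thiolases show how much a probe can matter. Acaa1b had 4.62, 5.16 and 4.60 against 6.82, 7.33 and 5.65, and rose by 1.80 ± 0.43 (SE; limma, adjusted p = 0.00379). The brightest probe of Acaa1a, on chromosome 9 of mm9 from 119255643 to 119256863, had 7.61, 7.87 and 8.81 against 5.35, 5.80 and 4.80 and fell by 2.78, while another probe of the same gene name (119259353 to 119259412) changed by 2.90 and was called higher. No direction can be given for Acaa1a. Of 121 listed genes with 2 or more probes tested, all probes of 81 changed in the same direction. The omega-hydroxylases Cyp4a31, detected on 2 of 3 AAV-V arrays, and Cyp4f14 changed by 0.05 and 0.01, and Cyp4a10 and Cyp4a14, known PPARα targets, were well above background on 1 and 0 HFD arrays and on no AAV-V array, and were not tested.

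Ketone body metabolism had the highest median of the lists, 2.69, and all 4 of its 6 genes that were tested rose, of which 2 were also called with normexp. Of the 4 genes, 2 were well above background on HFD arrays only, and with least changes for these the median was 1.74. Bdh1, β-hydroxybutyrate dehydrogenase, had 2.56, 2.84 and 3.36 against 6.10, 6.15 and 5.05, and was at least 3.75-fold higher (limma, adjusted p = 0.000143). Acat1, the mitochondrial acetoacetyl-CoA thiolase, was at least 1.73-fold higher. Oxct1, which uses ketone bodies outside the liver, stayed under the detection limit on all 6 arrays.

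**Figure D4:**
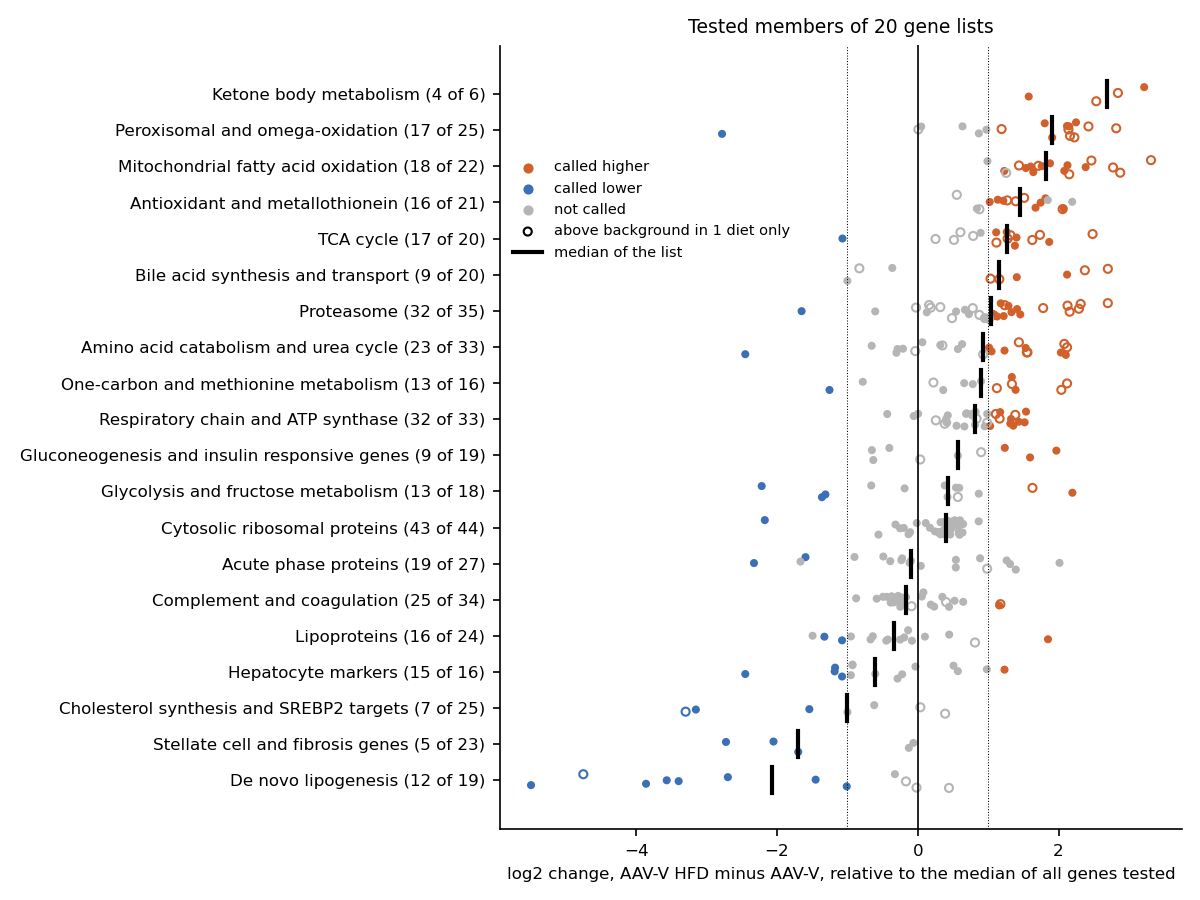
Each point is a tested gene of 20 gene lists (y axis, with the number tested of the number listed), placed by its relative log2 change (x axis). Open points mark genes well above background in 1 diet only, vertical bars the median of each list and dotted lines the 2-fold limit, and the medians run from 2.69 for ketone body metabolism to -2.07 for de novo lipogenesis. Open points are placed by fitted and not by least changes, and the medians include them.

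Among 16 other PPARα targets 4 were tested and 3 rose. Fabp1, the abundant fatty acid binding protein of liver, had 10.16, 9.58 and 10.00 against 11.46, 11.54 and 10.05 and rose by 1.11 ± 0.39 (SE; limma, adjusted p = 0.0316), with the third HFD array inside the range of the AAV-V arrays. This call was lost without AAV-V array 2, HFD array 1 or HFD array 2, at 0.94, 0.85 and 0.89. Creb3l3, a liver transcription factor of lipid metabolism, and Mgll, monoacylglycerol lipase, were at least 1.39-fold and 1.11-fold higher. Ppara itself changed by 1.20 (limma, adjusted p = 0.0657) and was called without AAV-V array 2, at 1.67, or HFD array 3, at 1.78. Fgf21 and Pdk4 were under the detection limit on all 6 arrays.

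The largest least rise of all genes tested was that of Fabp2, known as the intestinal fatty acid binding protein. It was well above background in HFD only, with 1.54, 2.97 and 1.86 against 6.08, 6.58 and 5.84, and was at least 4.96-fold higher (limma, adjusted p = 9.41e-05). Of 12 PPARγ-linked genes of steatosis, only Fabp2 and Fabp4 could be tested. Fabp4, detected on 1 of 3 AAV-V arrays, changed by -0.16 (limma, adjusted p = 0.775), and Pparg, Cidea, Cidec, Plin4, G0s2 and Lpl were well above background on 2 HFD arrays and on 0 AAV-V arrays. Lipid droplet genes were measured for 4 of 13 members, 3 higher and 1 lower. Plin2, the droplet coat protein of fatty liver, had 3.09, 1.79 and 1.98 against 4.12, 5.48 and 3.22 and was at least 1.33-fold higher (limma, adjusted p = 0.0065), Plin3 and Plin5 were called higher with no least fold change above 1, and Cideb, a droplet protein involved in VLDL lipidation, fell by 1.17 (limma, adjusted p = 0.00259) and changed by 0.58 by spike-in scaling. Without AAV-V array 1 the list had 1 rise, since Plin3 and Plin5 were at 1.00 and 1.01 and were not called, and the call of Plin5 was also lost without AAV-V array 2, HFD array 2 or HFD array 3, at 1.11, 1.12 and 0.77.

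Triglyceride synthesis did not move one way. Of 12 genes 6 were tested, 1 rose and 1 fell. Gpd1, which makes glycerol 3-phosphate, had 3.20, 4.57 and 3.23 against 6.71, 6.24 and 5.30 and rose by a fitted 2.42 ± 0.48 (SE; limma, adjusted p = 0.00126), detected on 1 of 3 AAV-V arrays, and Dgat2, which adds the last acyl chain, changed by 0.21 (limma, adjusted p = 0.608). Lpin2, a phosphatidate phosphatase detected on 2 of 3 AAV-V arrays, changed by -1.53 (limma, adjusted p = 0.046) with overlapping groups, while a second probe changed by 0.26, and its call was lost without AAV-V array 2 or 3, at -1.38 and -0.77, or HFD array 2 or 3, at -1.40 and -1.29. Of 13 genes of fatty acid uptake and activation 8 were tested, 2 rose and 3 fell. The largest fall was Dbi, the acyl-CoA binding protein, at -2.73 (limma, adjusted p = 9.41e-05), but a second probe changed by 0.56, and Acsl5, an acyl-CoA synthetase detected on 2 of 3 HFD arrays, changed by -2.56 (limma, adjusted p = 0.00012). By spike-in scaling neither was called. Slc27a2, a very long-chain acyl-CoA synthetase, rose by 1.12 (limma, adjusted p = 0.017), a call lost without HFD array 1 or 2, at 1.03 and 0.82.

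Of 24 lipoprotein genes 16 were tested, 1 rose and 2 fell, with a median of -0.34, while by spike-in scaling 11 rose and 0 fell. Of all genes tested 14.8% rose and 29.0% fell, and by spike-in scaling 64.5% and 1.52%. Apoa4, an apolipoprotein of triglyceride-rich particles, had 5.60, 2.64 and 3.52 against 4.99, 5.91 and 6.41 and rose by a fitted 1.85 ± 0.62 (SE; limma, adjusted p = 0.0245), detected on 1 of 3 AAV-V arrays and with overlapping groups, and the call was lost without AAV-V array 2 or 3, at 1.21 and 1.73, or HFD array 2 or 3, at 1.83 and 1.51. Apob, the structural protein of VLDL, had 9.80, 9.61 and 9.70 against 8.86, 8.65 and 8.38 and fell by 1.07 (limma, adjusted p = 0.00332), and Apoe fell by 1.33 (limma, adjusted p = 0.000834). Apob was just under the 2-fold limit without AAV-V array 3 or HFD array 3, at -0.99 and -0.97. The second probes of Apob and Apoe changed by 0.16 and 0.00, and by spike-in scaling Apob changed by 0.68 and Apoe by 0.43. Mttp, which loads lipid onto ApoB and was detected on 1 of 3 AAV-V arrays, changed by -0.19 (limma, adjusted p = 0.811).

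Of 20 genes of bile acid synthesis and transport 9 were tested, 6 rose and 0 fell, with a median of 1.16, where 14.8% of all genes tested rose. Of the 9, 2 were detected on all 6 arrays, of which 1 rose and 0 fell. Another 5 were well above background on HFD arrays only, a class in which 496 of 1302 genes rose. With least changes used for these 5 where above 1-fold, the median was 0.50. Amacr, the racemase of bile acid intermediates, and Hsd3b7, an enzyme of the sterol nucleus, were at least 1.95-fold and 1.96-fold higher, and Akr1c6, a hydroxysteroid dehydrogenase, rose 4.35-fold (limma, adjusted p = 0.00025). Cyp7a1, Cyp8b1 and Cyp27a1, which open the pathways, were under the detection limit on all 6 arrays. Without HFD array 2 the bile acid genes had 3 rises. Of 19 gluconeogenic and insulin-responsive genes 9 were tested and 3 rose, Pck1, Pcx and Fbp1. Pck1, phosphoenolpyruvate carboxykinase, had 5.08, 5.43 and 5.95 against 6.72, 7.31 and 8.34 and rose by 1.97 ± 0.40 (SE; limma, adjusted p = 0.00138). Without HFD array 3 these genes had 1 rise, with Fbp1 at 0.71. Pcx, detected on 1 of 3 AAV-V arrays, kept its call only without AAV-V array 2 and ranged from 0.76 to 1.69 without each other array. In glycolysis, where 2 of 13 tested genes rose and 3 fell (10 and 0 by spike-in scaling), Ldha, lactate dehydrogenase A, had 6.28, 6.77 and 5.74 against 8.13, 8.24 and 9.02, a 4.58-fold rise (limma, adjusted p = 0.000258). Tpi1, triose phosphate isomerase, fell by 2.22 on its brightest probe and a second probe changed by 2.31 and was called higher.

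The TCA cycle oxidizes acetyl-CoA. Of 20 of its genes 17 were tested, 11 rose and 1 fell, with a median of 1.26, where 14.8% of all genes tested rose and 29.0% fell. Of the 17, 3 were detected on all 6 arrays, of which 2 rose and 1 fell. Another 10 were detected on HFD arrays only, a class in which 496 of 1302 genes rose. With least changes used for these 10 where above 1-fold, the median was 0.94. Sdha, the flavoprotein of succinate dehydrogenase, and Idh2, the mitochondrial isocitrate dehydrogenase, were at least 1.32-fold and 2.65-fold higher, and Mdh2, malate dehydrogenase of the matrix, had 6.21, 5.76 and 5.97 against 7.42, 7.30 and 7.43 (limma, adjusted p = 0.00265). The fall was Mdh1, the cytosolic enzyme, at -1.07 (limma, adjusted p = 0.0164), whose second probe changed by 1.42 and was called higher, and the fall was lost without AAV-V array 3, HFD array 1 or HFD array 2, at -0.96, -0.99 and -0.86. Of 32 tested genes of the respiratory chain and ATP synthase 11 rose and 0 fell, with a median of 0.82, and 7 rose without HFD array 3. Among them Atp5a1, a subunit of the ATP synthase, rose by 1.52 ± 0.27 (SE; limma, adjusted p = 0.000668).

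Of 33 genes of amino acid catabolism and the urea cycle 23 were tested, 11 rose and 1 fell, with a median of 0.93. Of all genes tested 14.8% rose and 29.0% fell. Of the 23, 10 were detected on all 6 arrays, of which 3 rose and 0 fell, with a median of 0.19. Another 8 were well above background on HFD arrays only. With least changes used for these 8 where above 1-fold, the median was 0.57. Kmo, of tryptophan breakdown, detected on 1 of 3 AAV-V arrays, rose by 2.03 (limma, adjusted p = 0.000177), and Gpt, alanine aminotransferase, and Uroc1, of histidine breakdown, were at least 1.78-fold and 1.40-fold higher. Cps1, which starts the urea cycle, had 4.21, 4.92 and 5.16 against 1.59, 1.92 and 3.43 and fell by a fitted 2.45 ± 0.47 (SE; limma, adjusted p = 0.001), detected on 1 of 3 HFD arrays, and was not called by spike-in scaling, at -0.70. Without HFD array 3, 7 of these genes rose and 3 fell. In one-carbon metabolism 6 of 13 tested genes rose and 1 fell, and 3 rose without HFD array 3. Mat1a, which makes S-adenosylmethionine in the adult liver, and Mthfd1, of the folate cycle, were at least 2.31-fold and 2.36-fold higher, and on HFD array 3 Mat1a had 6.39 against 3.87 on HFD array 1.

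Antioxidant genes rose in 11 of 16 tested of 21 listed, and 0 fell, with a median of 1.45, where 14.8% of all genes tested rose. Of the 16, 6 were well above background on HFD arrays only. With least changes used for these 6 where above 1-fold, the median was 1.36. Catalase, Cat, a peroxisomal enzyme, had 4.27, 4.43 and 5.07 against 6.41, 6.36 and 6.43 and rose by 1.81 ± 0.29 (SE; limma, adjusted p = 0.000333). Gpx1, glutathione peroxidase 1, had 7.42, 6.97 and 6.78 against 9.02, 8.58 and 8.58 and rose by 1.67 ± 0.27 (SE; limma, adjusted p = 0.00036), and Prdx6, a peroxiredoxin, rose by 1.75. Gclc, the catalytic subunit of glutathione synthesis, was called higher (limma, adjusted p = 0.000511), with no least fold change above 1. The brightest probe of Prdx1 rose by 2.07, while a further probe changed by -1.16 and was called lower.

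Of 32 tested proteasome genes 16 rose and 1 fell, with a median of 1.04, where 14.8% of all genes tested rose and 29.0% fell. Of the 32, 10 were detected on all 6 arrays, of which 6 rose and 0 fell, and 17 on HFD arrays only. With least changes used for these 17 where above 1-fold, the median was 0.75. Psmb4, a subunit of the core particle, had 4.36, 4.34 and 4.42 against 5.51, 5.89 and 5.94 and rose by 1.41 ± 0.25 (SE; limma, adjusted p = 0.000683), and the fall was Psmc4, detected on 2 of 3 AAV-V arrays, at -1.65 and at 0.10 by spike-in scaling, whose second probe changed by 1.19 and was called higher. Among 13 tested housekeeping genes 5 rose and 2 fell, among 25 of complement and coagulation 2 rose and 0 fell, among 10 of ER stress 1 rose and 1 fell, and among 10 male-biased liver genes 0 rose and 2 fell. By spike-in scaling 11, 24, 9 and 6 genes of these lists rose and 0 fell, where 64.5% of all genes tested rose and 1.52% fell. Of 43 tested genes of cytosolic ribosomal proteins 0 rose and 1 fell, with a median of 0.41 (42 rose and 0 fell by spike-in scaling), and the exception, Rpl7, had 2 other probes that were not called. Cytochrome P450 genes of families 1 to 3 fell in 3 of 16 tested and rose in 0, while by spike-in scaling 0 fell and 11 rose, and the largest fall was Cyp2r1, a vitamin D hydroxylase, at -1.83 (limma, adjusted p = 0.000341) and -0.08 by spike-in scaling. In conjugation, 2 of 19 tested genes rose and 2 fell (16 and 1 by spike-in scaling). Gsta4, a glutathione transferase for lipid aldehydes, had 5.38, 6.31 and 6.36 against 3.16, 2.10 and 3.56, an 8.46-fold fall (limma, adjusted p = 0.000206). It was also called lower by spike-in scaling, at -1.33.

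Several acute phase and metallothionein genes spread widely within each diet. Mt1, a metallothionein, had 9.17, 3.47 and 4.23 on the AAV-V arrays and 5.50, 6.97 and 9.94 on the HFD arrays (limma, relative change 1.85 ± 1.32 SE, adjusted p = 0.255). Saa1, serum amyloid A, had 7.45, 3.42 and 4.03 against 5.13, 5.92 and 8.02 (limma, relative change 1.39 ± 1.49 SE, adjusted p = 0.447). Both were detected on 2 of 3 AAV-V arrays. In both genes AAV-V array 1 and HFD array 3 were the high ones, and without AAV-V array 1 Mt1 was called higher, at 3.56 (limma, adjusted p = 0.01). Of 27 acute phase genes 19 were tested, 0 rose (3 without HFD array 1) and 2 fell, and Orm3, an orosomucoid, fell by 2.33 (limma, adjusted p = 0.00015). By spike-in scaling 11 of these genes rose and 0 fell, with Orm3 at -0.57 and not called.

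The liver identity of the samples was checked on hepatocyte markers. Of 16 listed, 15 were tested, 1 rose and 4 fell, with a median of -0.60. The 14 markers measured on all 6 arrays had a median of -0.44, beside the -0.83 of all genes so measured. By spike-in scaling 7 of these markers rose and 0 fell. Alb, albumin, had 12.49, 12.42 and 12.32 against 10.68, 11.56 and 11.46 and fell by 1.18 (limma, adjusted p = 0.00566), as did a second probe, at -1.36, and its change by spike-in scaling was 0.57. Without HFD array 1 Alb was at -0.94 and just under the 2-fold limit. Hnf4a, the hepatocyte transcription factor, changed by 0.98 and was not called at the 2-fold limit, but was called without AAV-V array 1, HFD array 1 or HFD array 2, at 1.21, 1.08 and 1.05. Of 12 pericentral markers 4 were tested, 1 rose and 1, not named here, fell, at -1.05, while by spike-in scaling 3 rose and 0 fell. Oat, a pericentral enzyme, had 4.52, 4.08 and 4.27 against 6.61, 7.60 and 5.69 and rose by a fitted 2.34 ± 0.47 (SE; limma, adjusted p = 0.00137), detected on 1 of 3 AAV-V arrays. The pericentral Cyp2e1 and Glul changed by 0.97 (limma, adjusted p = 0.075) and 1.12 (limma, adjusted p = 0.0691). Cyp2e1 was called without AAV-V array 2, at 1.55, and Glul, detected on 2 of 3 AAV-V arrays, without HFD array 3, at 1.68. Of 11 periportal markers 6 were tested, 1 rose (Pck1, described above) and 0 fell, while by spike-in scaling 4 rose and 0 fell. Among them Cyp2f2 changed by -0.89 and was not called at the 2-fold limit.

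Markers of other liver cells were mostly under the detection limit. Of 25 macrophage and Kupffer cell genes 8 were tested, 1 rose (Ctss, a lysosomal protease, at 1.14) and 1 fell (Itgam, an integrin, at -1.17 and 0.58 by spike-in scaling), while by spike-in scaling 7 rose and 0 fell. The call of Ctss was lost without AAV-V array 1 or 2, at 0.58 and 1.26, or HFD array 1 or 2, at 1.17 and 0.85. The Kupffer cell markers Clec4f and Cd5l changed by 0.11 (limma, adjusted p = 0.785) and -0.03 (limma, adjusted p = 0.949), and Timd4, Trem2 and Gpnmb were under that limit on all 6 arrays. Of 23 stellate cell and fibrosis genes 5 were tested, 0 rose and 3 fell, while by spike-in scaling 2 rose and 0 fell. Of all genes tested 14.8% rose and 29.0% fell, and by spike-in scaling 64.5% and 1.52%. Des, desmin, had 6.01, 7.62 and 6.27 against 3.49, 3.65 and 4.58 and fell by 2.72 ± 0.51 (SE; limma, adjusted p = 0.000865), and Bgn, biglycan, fell by 2.05 (limma, adjusted p = 0.000388). Neither was called by spike-in scaling, at -0.97 and -0.30. Col1a1 and Timp1 were under the detection limit on all 6 arrays. No endothelial, cholangiocyte or proliferation marker could be tested, of 12, 9 and 9 listed, and of the 9 neutrophil, 8 erythroid and 8 adipocyte markers 4, 2 and 1 were tested, with 1 fall among the neutrophil markers, Elane, at -1.68.

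**Figure D5:**
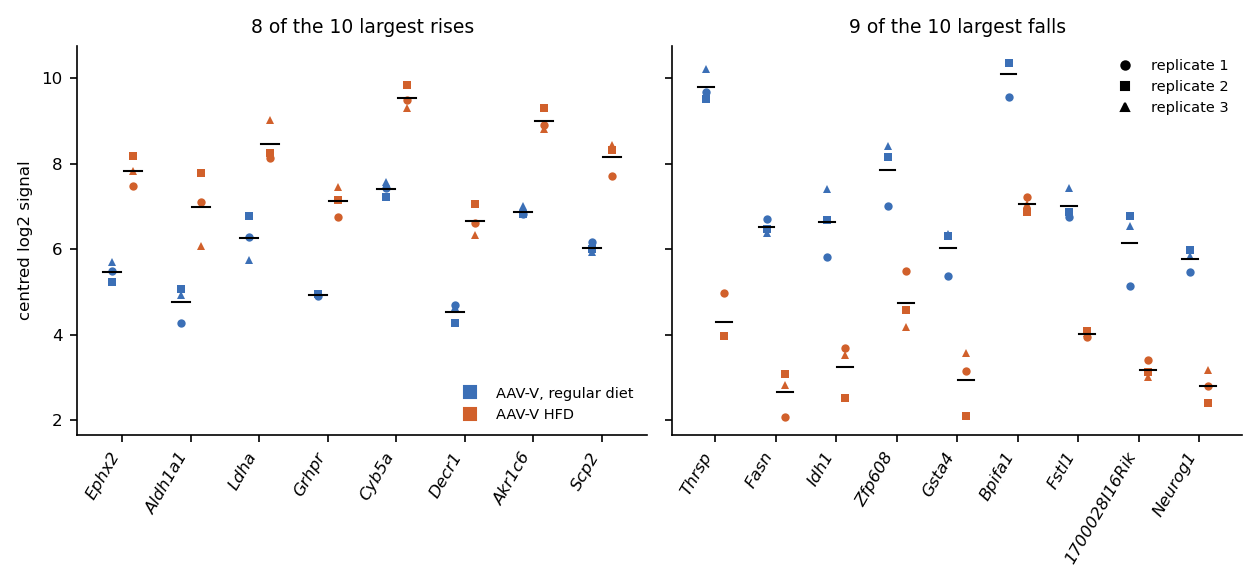
Points give the centred log2 signal (y axis) of each of the 6 arrays, by replicate, for 8 of the 10 genes with the largest rises and 9 of the 10 with the largest falls (x axis) among genes with a symbol that were detected on all 6 arrays and whose diets did not overlap, and bars give the mean of 3 arrays. The rises run from Ephx2, at 2.36, to Scp2, at 2.12, and the falls from Thrsp, at -5.49, to Neurog1, at -2.96.

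Of the 10 largest rises among genes measured on all 6 arrays, 8 are named here, and Decr1, Scp2, Akr1c6 and Ldha are described above. The others were Ephx2, the soluble epoxide hydrolase of lipid epoxides, Aldh1a1, a retinal dehydrogenase, Grhpr, a glyoxylate reductase, and Cyb5a, an electron donor for desaturases and P450 enzymes. Ephx2 had 5.50, 5.24 and 5.69 against 7.48, 8.19 and 7.83, a 5.13-fold rise (limma, adjusted p = 0.000129). Aldh1a1 rose 4.70-fold with a wider spread, from 4.27, 5.07 and 4.92 to 7.11, 7.77 and 6.08 (limma, adjusted p = 0.00145). Grhpr was even across arrays, with 4.89, 4.95 and 4.95 against 6.74, 7.16 and 7.45, a 4.55-fold rise (limma, adjusted p = 0.000104), and Cyb5a rose 4.42-fold (limma, adjusted p = 0.000174).

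Of the 10 largest falls with a gene symbol 9 are named here. Thrsp, Fasn, Idh1 and Gsta4 are described above, and 9 transcripts without a symbol lay among them. The others were Zfp608, Bpifa1, Fstl1, 1700028I16Rik and Neurog1, and all 10 were also called lower by spike-in scaling. Fstl1, a secreted glycoprotein, had 6.74, 6.87 and 7.43 against 3.95, 4.07 and 4.05. It fell 7.93-fold, a change of -2.99, which was -1.24 by spike-in scaling. Bpifa1 is known from airway epithelium, and its signal was 9.56, 10.35 and 10.35 against 7.22, 6.86 and 7.06. It fell 8.21-fold, a change of -3.04, which was -1.29 by spike-in scaling. Neurog1, a neuronal transcription factor, had 5.47, 5.97 and 5.83 against 2.81, 2.40 and 3.18, and changed by -1.21 by spike-in scaling. What these probes measure in liver was not tested.

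Of the 1302 genes detected on every HFD array but on no AAV-V array, 496 were called higher and 7 lower, and 44 (3.38%) were called with a least fold change of at least 2. After Fabp2, the largest were Bdh1, Cpt2, Akr1c20 and Pex11a, of which Akr1c20, an aldo-keto reductase, had 3.66, 3.76 and 3.17 against 5.59, 5.95 and 5.52 and was at least 3.56-fold higher. All 10 genes well above background in the regular diet only fell by a least fold change of at least 2. The 5 with a RefSeq symbol were Scd3, 1700066J03Rik (at least 7.29-fold), Fdft1, A930017M01Rik (at least 5.01-fold) and Adm, which encodes adrenomedullin and fell at least 3.88-fold, with 3.89, 3.94 and 3.98 on the AAV-V arrays. Golm1, which encodes GP73, the subject of the series, has its probe on chromosome 13 of mm9 (59736466 to 59736525), which stayed under the detection limit on all 6 arrays, and was not tested.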

How the data were processed

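Liver RNA was measured on 9 one-colour arrays (AAV-V, AAV-GP73 and AAV-V HFD, 3 each). The authors deposited scanner output of Agilent Feature Extraction (12.0.3.1 per the file headers, 10.7 in the submitters' processing notes), with background-subtracted and detrended intensity values per spot and no scaling between arrays. Of 62976 spots 59305 were non-control, 0 were saturated and 103 to 151 on each of the 6 arrays were flagged as outliers and left out. A table of log2 values deposited by the authors, whose normalization is not given in the sources used here, had column medians of 0.80 and served as an alternative. Gene names are those of the array, of which 3629 of 4791 tested matched a RefSeq symbol.

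Each array's log2 processed signal was shifted to an equal 75th percentile over probes well above background on all 9 arrays. A gene was its brightest probe over the 6 arrays, was tested where the 3 arrays of at least 1 diet all detected it, and was fitted with limma 3.58.1 (R 4.3.3) over 3 groups, with moderated tests and Benjamini-Hochberg adjustment. Changes were taken relative to the median over genes tested. A call needed a 2-fold relative change and an adjusted p under 0.05. The unadjusted p was under 0.05 for 2798 genes and the adjusted p for 2491. Replicates are samples labelled as separate, and nothing states that each was a separate animal. The scripts were tested on simulated data.

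The groups, gene lists and tests were chosen with earlier results of these data known. Genes were named by rule. They were the 10 largest rises and falls with symbols on all 6 arrays with diets apart, the 5 largest least rises and falls in 1 diet only, and, of each list, key members and called members with the largest changes, and Golm1. Other list members that are named with a detection count or as the sole call of a list were chosen after their values were seen. Alternatives covered scaling, background correction (normexp, offset 50), filter, probe choice, test and left-out arrays. The set of AAV-GP73 arrays entered the estimate of spread, the choice of probes and spike-in spots for scaling, and some of the scaling alternatives. Results of some genes of the lists are not reported here by themselves, although they count in the totals.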

Additional observations from a re-analysis of the deposited data

How the results depend on the processing

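With its probe kept, no gene called in one direction was called in the other under any alternative run, but other probes of some genes, such as Acaa1a, Mdh1, Tpi1, Psmc4 and Prdx1, were called in the opposite direction. The balance of rises and falls followed the reference. With no median subtracted, all genes tested had 1324 rises (279 among genes measured on all 6 arrays, and 119 least rises of 2-fold) by detected probes, 2754 rises and 184 falls (981 and 112) by all probes, and 3090 and 73 (1191 and 36) by spike-in spots. Relative to the median of genes on all 6 arrays they had 2118 and 596 (683 and 455). Cyclic loess gave 1409 rises (26 on all 6 arrays) and 641 least rises of 2-fold. Normexp, a background correction that raises dim signals, gave 361 and 21 (348 and 18), with 2 and 0 least changes of 2-fold, and shared 92 of the 709 rises and 21 of the 1389 falls. Of the 16 rises of mitochondrial oxidation it shared 6, and of the 8 falls of lipogenesis 2. The authors' log2 values gave 1481 rises (209) with no median subtracted. Without the filter on dim probes there were 4536 and 81 (1140 and 18), and with only genes on all 6 arrays 456 falls (685 and 456). The methods' t-test after Benjamini-Hochberg gave 401 rises, and no minimum fold 186 rises on all 6 arrays.

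Leaving out 1 array at a time gave 640 to 757 rises and 1221 to 1474 falls, 101 to 131 and 1005 to 1194 on all 6 arrays, and 33 to 57 least rises and 10 to 10 least falls of 2-fold. Of the 92 called genes named, 78 stayed called without each array.

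The replicate numbers did not pair the samples, since deviations of same-numbered arrays correlated at -0.10, -0.08 and 0.22, and not every array correlated best with its own number. With the replicate number as a block there were 715 rises and 1390 falls (114 and 1130), and 3 of 112 named genes changed their side of the threshold.

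Of 112 named genes, those listed here were called and turned in sign, or were not called and became called against their main direction. Genes not called that changed sign without such a call are not listed. The listed genes had fallen or were not called, except Plin3 and Plin5, and the cause was not tested. By spike-in spots with no median subtracted these were Acly 0.30, Elovl6 1.43, Slc25a1 0.74, Srebf1 1.73, Mlxipl 1.58, Sc5d 0.21, Fabp4 1.60, Cideb 0.58, Lpin2 0.22, Apob 0.68, Apoe 0.43, Mdh1 0.68, Psmc4 0.10, Alb 0.57, Cd5l 1.73, Itgam 0.58 and Elane 0.071. By all probes with no median subtracted they were Elovl6 1.05, Slc25a1 0.36, Srebf1 1.35, Mlxipl 1.20, Fabp4 1.21, Cideb 0.20, Apob 0.30, Apoe 0.045, Mdh1 0.30, Alb 0.19, Cd5l 1.34 and Itgam 0.20. Without the filter on dim probes they were Acly 0.37, Elovl6 1.50, Slc25a1 0.81, Srebf1 1.80, Mlxipl 1.65, Sc5d 0.28, Fabp4 1.66, Cideb 0.65, Lpin2 0.29, Apob 0.74, Apoe 0.49, Mdh1 0.75, Psmc4 0.17, Alb 0.64, Cd5l 1.79, Itgam 0.64 and Elane 0.14. Under normexp they were Plin3 -0.0057, Plin5 -0.036, Apob 0.27, Apoe 0.083, Alb 0.30 and Itgam 0.15, by cyclic loess Srebf1 1.55, and by the authors' values with no median subtracted Alb 0.25. Precision is limited by 3 arrays per diet, and 1302 genes had no signal well above background on the regular diet.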
